A study of Mus musculus with 9 samples.

Results

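The 40 genes described here encode the proteins that carry glucose from uptake to lactate export, the enzymes that admit pyruvate to the mitochondrion, and the enzymes that build and break down glycogen. They were listed by name as known members of these pathways, by a rule that uses no measured value but was set with earlier results of these data known, and make up 40 of the 56748 genes in the count table. Their names matched 41 rows, because Aldoa also names a minor second row with 33 to 74 counts per library, and the row with more counts was used. Of the 40 genes, 39 had enough reads to enter the test together with the other genes among the 13812 tested. The remaining member, Ldhb, which encodes the heart-type subunit of lactate dehydrogenase, was listed at 0 to 5 counts per library and was not tested. A library with a count of 0 allows up to 3 counts, so Ldhb can only be said to lie at or near the limit of detection.

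RNA was sequenced from MLO-Y4 cells, an osteocyte-like line of the mouse that had shared transwell plates with primary articular chondrocytes from C57BL/6J pups aged 5 to 6 days. The control group (3 libraries) was kept with unstimulated chondrocytes. The 24 h and 48 h groups (3 libraries each) were kept for those times with chondrocytes that had first received 10 ng/mL interleukin-1β for 6 h. No genotype differed between the groups, and the chondrocytes were physically separate from the sequenced cells. The culture time of the control group is not given in the labels, so time in culture and chondrocyte stimulation cannot be told apart in a difference from control. The labels name the cell line as MLO-Y5, MLO-Y6 and MLO-Y7 in the 48 h libraries, whereas the protocol names MLO-Y4 for all samples. Nothing in the labels says that libraries of a group came from separate cultures, so p-values measure the spread between these libraries, which may be technical.

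Total counts per library lay between 12250628 and 18515456, and libraries of a group differed by more than counting noise, control replicates 2 and 3 the most (chi-square per degree of freedom 8.14, against 2.26 to 4.97 in the other pairs). Among osteocyte and osteoblast markers, Gja1, Col1a1, Bgn and Sparc were abundant, whereas the mature osteocyte markers Dmp1, Sost, Mepe and Fgf23 were at 0 to 6 counts in every library. Pdpn and Phex, of the same list, had 2640 to 4275 and 151 to 363 counts per library. By the test described below, Gja1, Col1a2, Pdpn and Phex were higher at 48 h than in control. Col1a1, Alpl, Bglap and Sp7 were lower. The chondrocyte genes Acan, Col9a1, Col9a2, Matn1 and Cnmd were at 0 in all libraries and Col2a1 did not exceed 7 counts. The summed level of the 14 chondrocyte markers, nearly all of it from Prg4 and Sox9, was 1684 to 1719 CPM (counts scaled to the library total) in control, 1568 to 1651 CPM at 24 h and 2131 to 2220 CPM at 48 h. The sum of 7 macrophage markers stayed between 3.80 and 7.93 CPM, with Ptprc, Adgre1, Itgam and Tyrobp at 0 or 1 count. The 16 osteocyte and osteoblast markers summed to 4828 to 5060 CPM in control, 4890 to 5017 at 24 h and 5733 to 5818 at 48 h. The part of these movements in the results below was not tested. In bulk RNA, fewer cells of a type and less RNA per cell cannot be told apart.

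Glycolysis splits glucose into pyruvate in a chain of enzymes and yields energy without oxygen. Pyruvate is then either reduced to lactate, which leaves the cell through monocarboxylate transporters, or enters the mitochondrion and is converted to acetyl-CoA by the pyruvate dehydrogenase complex, which the pyruvate dehydrogenase kinases switch off. Glycogen is the stored form of glucose, made by glycogen synthase and cleaved by glycogen phosphorylase, and bone cells are known to draw much of their energy from glycolysis.

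The members were on the whole higher in cells kept with stimulated chondrocytes. At 24 h, 20 of the 39 tested members were higher than in control and 0 were lower, and at 48 h, 25 were higher and 5 were lower. Differences in RNA level are given in log2 units (log2 fold change) with their standard error (SE, also shown after ±), and a gene was called different at an adjusted p under 0.05 in edgeR's quasi-likelihood test over all 13812 genes. Of all genes tested, 3.25% were called higher and 2.9% lower at 24 h, and 22% were called higher and 24.4% lower at 48 h. The share of members called higher therefore lay above the background at 24 h and at 48 h, while 5 of 39 called lower at 48 h lay below it. At an unadjusted p under 0.05, 1 member was lower at 24 h, and DESeq2 called 0. The median log2 fold change of the members was 0.17 at 24 h and 0.32 at 48 h, whereas that of all genes tested was between -0.00417 and -0.00167 in the 3 comparisons. Between the time points, 19 of the 39 members were higher and 10 were lower at 48 h than at 24 h, against 23.7% and 25.4% of all genes. The share of members higher lay above that of all genes, and the share lower lay close to it.

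The changes had several courses over time. Shares of all genes with each course were not counted, so the counts of members by course describe the members only. At single times, 3.25% of all genes were higher at 24 h, and 22% were higher and 24.4% lower at 48 h. Of the members, 17 were higher than control at both times, and of these Slc2a1, Gpi1, Pfkp, Pfkfb3, Tpi1, Gapdh, Slc16a1 and Pdk1 were higher again at 48 h than at 24 h. Hk2 and Pgam1 were lower at 48 h than at 24 h while still above control, and 7 others were not called between the times. Another 8 members, namely Hk1, Pfkm, Aldoc, Eno2, Pdk2, Pdk4, Pygl and Ugp2, did not pass the test at 24 h and were higher than control at 48 h. Slc2a3 and the pyruvate dehydrogenase subunits Pdha1, Pdhb and Dlat did not pass at 24 h and were lower than control at 48 h. Ldha and Gbe1 were higher than control at 24 h and lower at 48 h than at 24 h, and Pkm was called in opposite directions at 24 h and 48 h. The calls between 48 h and 24 h of Hk2, Pfkp, Gapdh, Pgam1, Pdhb and Mpc1 were each lost when 1 of several single libraries was left out, and those of Pgam1, Pdhb and Mpc1 also under other scalings, filters or tests with all libraries kept.

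**Figure D1:**
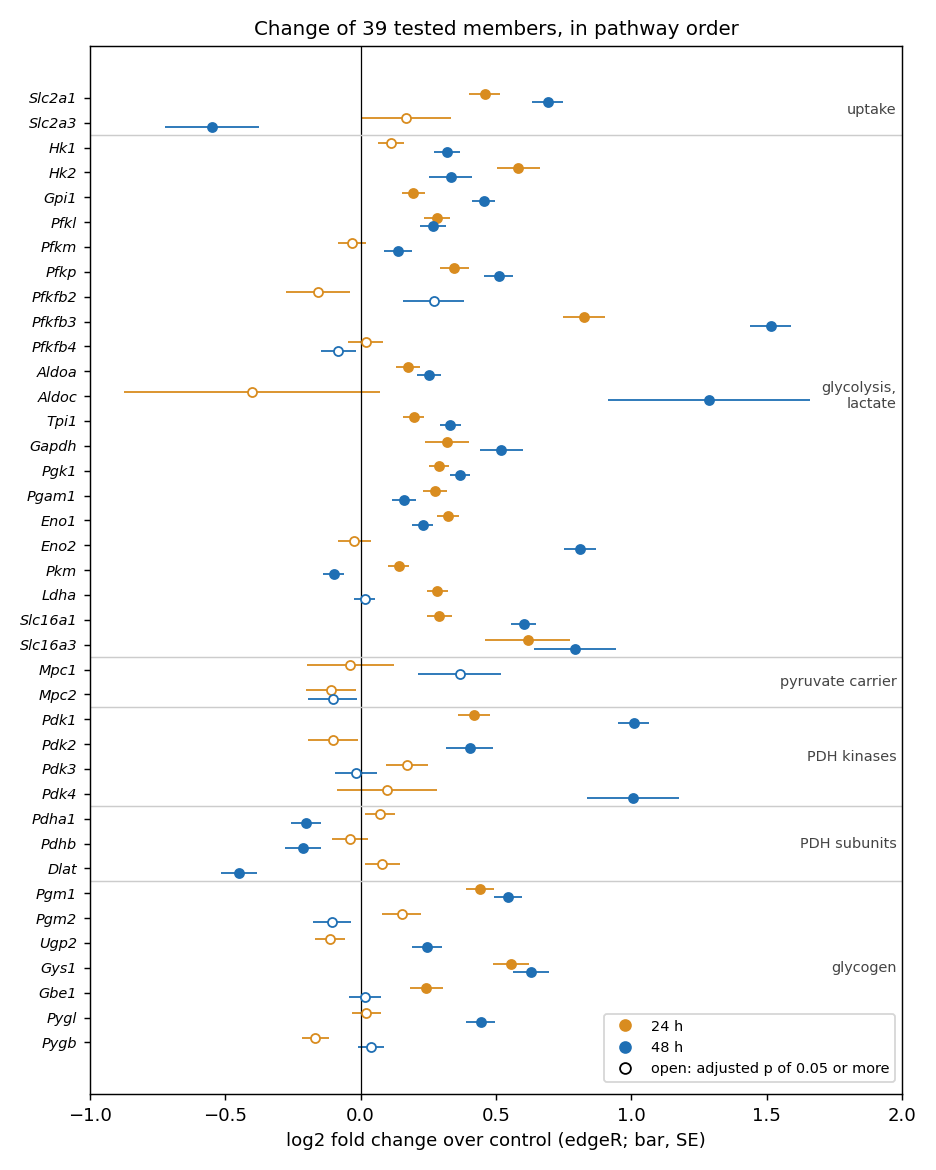
Log2 fold change over control (x axis) of the 39 tested members in pathway order, at 24 h (orange) and 48 h (blue), with bars of 1 SE and filled points for an adjusted p under 0.05. The filled 24 h points all lie to the right of 0, and the filled 48 h points to the left of 0 are Slc2a3, Pkm, Pdha1, Pdhb and Dlat.

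Together the members took 1.37% ± 0.0549 (SD, n = 3) of all counts in control, 1.58% ± 0.0235 at 24 h and 1.62% ± 0.0084 at 48 h. The ranges of control and of either time point did not overlap. Compared per length (CPM per kb of the gene length in the table), the highest members in control were Ldha at 529.9, Tpi1 at 521 and Pkm at 495, followed by Pgk1, Aldoa, Eno1 and Pgam1, and at the other end Slc16a3 stood at 0.913, Aldoc at 0.156 and Ldhb at 0.0747. The library ranges of Ldha, Tpi1 and Pkm overlapped in control, so their order is not fixed.

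Of the glucose transporters among the members, GLUT1 had by far the higher RNA level. Slc2a1 (ENSMUSG00000028645, chr4:118965908-118995180, GRCm39), which encodes the basal glucose transporter GLUT1, made up 97.3% ± 0.578 (SD) of the per-length level of the 2 transporters in control. It was measured at 164, 179.6 and 163 CPM in the control libraries, 236, 219 and 240.0 at 24 h and 274, 255 and 288 at 48 h. All libraries of each later group lay above all of the earlier one. The change over control was 0.46 log2 units (adjusted p = 4.07e-05, SE 0.06) at 24 h and 0.69 (adjusted p = 1.84e-08, SE 0.06) at 48 h. Slc2a3 (ENSMUSG00000003153, chr6:122704768-122778599), which encodes the high-affinity transporter GLUT3, was scarce, at 11, 11.1 and 7.07 CPM in control, 10.2, 9.57 and 13.2 at 24 h and 6.4, 5.93 and 7.63 at 48 h. Its 48 h libraries lay below all 24 h libraries but overlapped those of control. It fell at 48 h, with a change of -0.55 log2 units (adjusted p = 0.0142, SE 0.17), although over the alternative settings its adjusted p ranged from 0.000679 to 0.098 and the call disappeared without control replicate 1, control replicate 2 or 48 h replicate 2. Slc2a3 overlaps the gene Gm4482 on the same strand, with no shared exon bases.

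Glucose is trapped in the cell by hexokinases. Hk2 (ENSMUSG00000000628, chr6:82702006-82751435), the inducible form bound to mitochondria, was at 83.1, 78.3 and 90.7 CPM in control, 133, 113 and 132 at 24 h and 99, 99.5 and 119 at 48 h. Both later groups lay above control, and the 24 h and 48 h libraries overlapped. The change was 0.58 log2 units (adjusted p = 0.000102, SE 0.08) at 24 h and 0.33 (adjusted p = 0.00227, SE 0.08) at 48 h, and the difference between the times was -0.25 (adjusted p = 0.0132, SE 0.08), with the call lost without 24 h replicate 1 or 3 or 48 h replicate 1 or 2 (adjusted p 8.61e-05 to 0.0751 over the alternatives). Hk1, the housekeeping form, changed by 0.11 ± 0.05 log2 units at 24 h (adjusted p = 0.204) and rose by 0.32 (adjusted p = 2.35e-05, SE 0.05) at 48 h. Hk2 made up 33% ± 1.44 (SD) of the hexokinase level per length in control, 40.6% ± 2.62 at 24 h and 33.2% ± 2.08 at 48 h.

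The next steps, up to the splitting of the sugar, are run by glucose-6-phosphate isomerase (Gpi1) and the phosphofructokinases. Gpi1 rose by 0.19 ± 0.04 log2 units at 24 h and 0.45 ± 0.04 at 48 h. Pfkp (ENSMUSG00000021196, chr13:6629804-6698813), the platelet-type subunit of phosphofructokinase, was at 121, 127 and 127 CPM in control, 156, 153 and 167 at 24 h and 177, 172 and 185 at 48 h, with no overlap between any of the groups. Its change was 0.35 log2 units (adjusted p = 0.000354, SE 0.05) at 24 h and 0.51 (adjusted p = 3.51e-07, SE 0.05) at 48 h. The liver-type subunit Pfkl rose by a like amount at both times (0.28 log2 units and 0.27), and the muscle-type subunit Pfkm was at -0.03 (adjusted p = 0.823, SE 0.05) at 24 h and rose by 0.14 (adjusted p = 0.0334, SE 0.05) at 48 h, a small change whose call was lost in 6 of the 17 alternatives, among them those without control replicate 1 or any single 48 h library (adjusted p 0.00548 to 0.113). Pfkp overlaps Pitrm1 and Pfkm overlaps Senp1, both on the opposite strand, over 11.1% and 4.36% of their exon bases.

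The member with the largest log2 fold change at 24 h and at 48 h was Pfkfb3 (ENSMUSG00000026773, chr2:11476244-11558888), which encodes the enzyme that makes fructose 2,6-bisphosphate, the strongest activator of phosphofructokinase. It was measured at 24.4, 26.7 and 29.8 CPM in control, 50.4, 45.4 and 47.2 at 24 h and 75.8, 74.3 and 80.2 at 48 h, so that the 3 groups did not overlap. This was 1.77-fold the control level at 24 h and 2.86-fold at 48 h, with changes of 0.83 log2 units (adjusted p = 1.02e-06, SE 0.08) and 1.51 (adjusted p = 1.57e-11, SE 0.07). The difference between 48 h and 24 h was 0.69 log2 units (adjusted p = 1.8e-07, SE 0.07). Neither of its measured relatives was called against control in the main fit, but Pfkfb2 was called higher at 48 h in 6 of the 17 alternatives (adjusted p 0.0319 to 0.227). Pfkfb4 had changes of 0.02 ± 0.06 log2 units at 24 h and -0.083 ± 0.06 at 48 h (adjusted p = 0.916 and 0.31), and Pfkfb2 of -0.16 ± 0.12 and 0.27 ± 0.11 (adjusted p = 0.532 and 0.0578), although Pfkfb2 was higher at 48 h than at 24 h by 0.43 (adjusted p = 0.00429, SE 0.11). Per length, Pfkfb3 made up 25.7% ± 1.25 (SD) of these 3 genes in control, 38.2% ± 0.904 at 24 h and 49.96% ± 0.857 at 48 h, and Pfkfb4 made up 61.6% ± 1.47, 52.2% ± 0.528 and 39.6% ± 1.49. On this scale Pfkfb4 was ahead in control and at 24 h and Pfkfb3 at 48 h, whereas in counts not divided by length Pfkfb3 was ahead already at 24 h, with 47.1% against 41.5% for Pfkfb4. The rise of the Pfkfb3 share from group to group was present on both scales. Pfkfb2 overlaps Yod1 on the opposite strand over 16.0% of its exon bases.

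**Figure D2:**
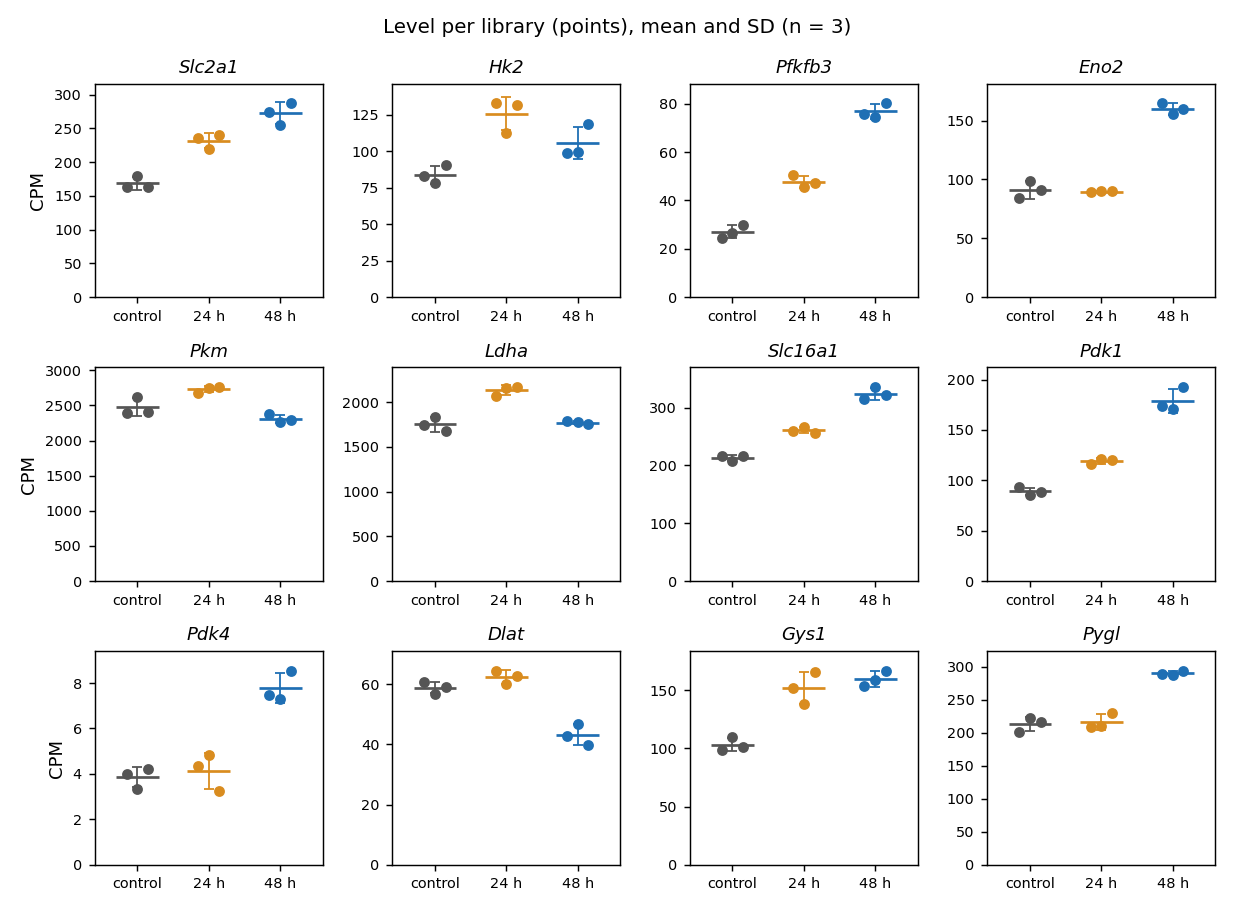
CPM per library (points), with the mean (line) and SD (bar, n = 3), of 12 members in control, 24 h and 48 h, each panel with its own axis from 0. Slc2a1, Pfkfb3, Slc16a1 and Pdk1 step up from group to group without overlap, Eno2, Pdk4 and Pygl are raised at 48 h, Pkm and Ldha are highest at 24 h, and Dlat is lowest at 48 h.

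Most enzymes of the middle and lower part of the chain rose by small amounts from high levels. Aldolase A (Aldoa) had changes of 0.17 ± 0.04 log2 units at 24 h and 0.25 ± 0.04 at 48 h, triose-phosphate isomerase (Tpi1) of 0.20 ± 0.04 and 0.33 ± 0.04, phosphoglycerate kinase (Pgk1) of 0.29 ± 0.04 and 0.37 ± 0.04, phosphoglycerate mutase (Pgam1) of 0.28 ± 0.04 and 0.16 ± 0.04, and the ubiquitous enolase Eno1 of 0.32 ± 0.04 and 0.23 ± 0.04. All 5 passed the test at both times, with adjusted p between 1.8e-07 and 0.0242. The 24 h call of Aldoa disappeared in a fit of only the groups compared and without control replicate 1 or 24 h replicate 2 or 3, where its adjusted p reached 0.131. The 9 abundant enzymes from Gpi1 to Ldha (without Gapdh) took 1.12% ± 0.0533 (SD) of all counts in control, 1.30% ± 0.0215 at 24 h and 1.28% ± 0.00959 at 48 h, so that control lay below both later groups. The brain-type aldolase Aldoc (ENSMUSG00000017390, chr11:78213794-78218607) was near the limit of detection, with 5 to 27 counts per library. It was at 0.502, 0.572 and 0.451 CPM in control, 0.334, 0.325 and 0.494 at 24 h and 1.54, 1.26 and 0.961 at 48 h, where all 3 libraries lay above the others. Its change at 48 h was 1.29 log2 units (adjusted p = 0.00847, SE 0.37), a rise of few reads that left Aldoa above 99.9% of the aldolase level per length in every group.

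The oxidation step is catalysed by glyceraldehyde-3-phosphate dehydrogenase. Gapdh (ENSMUSG00000057666, chr6:125138678-125143430), often used as a reference gene, was at 63.6, 62.9 and 56.2 CPM in control, 68.6, 76.6 and 83 at 24 h and 79.2, 95.8 and 87 at 48 h. Both later groups lay above control and overlapped each other. The change was 0.32 log2 units (adjusted p = 0.0213, SE 0.08) at 24 h and 0.52 (adjusted p = 2.97e-05, SE 0.08) at 48 h, and the 24 h call disappeared without 24 h replicate 2 or 3 (adjusted p 5.62e-05 to 0.132 over the alternatives). Its level per length in control, 14.7 CPM per kb, was far under that of its neighbours Tpi1 (521) and Pgk1 (387). Of all stretches of 128 bases in its main transcript, 84.8% were found letter for letter elsewhere in the GRCm39 genome, at a mean of 14.4 other places, and 41.6% of its exon bases are shared with Iffo1 on the opposite strand. Other members with such copies were Pgk1 (88.0%, at a mean of 1.76 places), Pgam1 (86.8%, at 1.27 places), Mpc1 (62.8%) and Eno1 (46.5%), whereas Pkm had 7.41% and no other member more than 5.16%. How reads with several matches were counted is not given in the sources used here, so the counts of these 5 genes are uncertain, and the part of the copies in their changes was not tested.

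**Figure D3:**
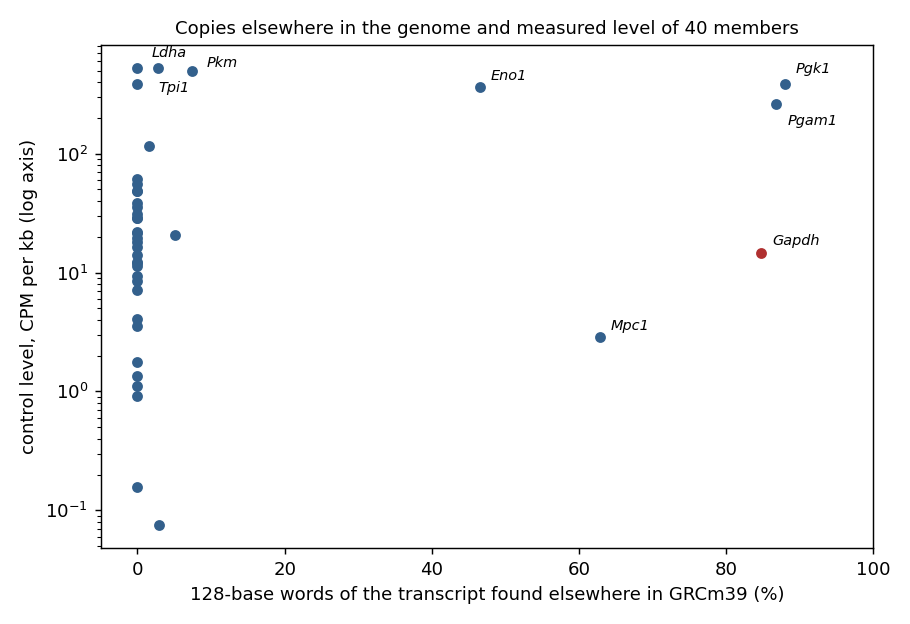
Control level in CPM per kb (y axis, log scale) of the 40 members against the share of 128-base stretches of the main transcript that also occur elsewhere in the GRCm39 genome (x axis, percent). Gapdh (red), at 84.8%, lies at 14.7 CPM per kb, below Pgk1 (387) and Pgam1 (262) at a like share.

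Eno2 and pyruvate kinase took other courses than the enzymes above them. Eno2 (ENSMUSG00000004267, chr6:124737016-124746636), the neuron-type enolase, was at 83.9, 98.9 and 91.2 CPM in control, 89.4, 89.8 and 90.0 at 24 h and 165, 155 and 159.6 at 48 h. The 24 h libraries lay within the control range and the 48 h libraries above both. Its change was -0.023 log2 units (adjusted p = 0.898, SE 0.06) at 24 h and 0.81 (adjusted p = 3.18e-09, SE 0.06) at 48 h. Its share of the summed level of Eno1 and Eno2 per length was 5.08% ± 0.223 (SD) in control, 4.04% ± 0.0628 at 24 h and 7.41% ± 0.198 at 48 h. This share leaves out Eno3, an enolase outside the members, which averaged 92.2 CPM in control, 84.9 at 24 h and 41.2 at 48 h. Pkm (ENSMUSG00000032294, chr9:59563651-59586658), which encodes the pyruvate kinase that makes pyruvate, was at 2390.2, 2619 and 2411 CPM in control, 2678, 2740.3 and 2763 at 24 h and 2373, 2257 and 2293 at 48 h. All 24 h libraries lay above control and all 48 h libraries below it, by small margins. It rose by 0.14 log2 units (adjusted p = 0.0347, SE 0.04) at 24 h and fell at 48 h, with a change of -0.10 (adjusted p = 0.0406, SE 0.04). The call was lost in 8 of the 17 alternatives at 24 h (adjusted p 0.000822 to 0.135) and in 10 of the 17 at 48 h (adjusted p 0.0309 to 0.27), among them those without control replicate 1 at 24 h, without control replicate 2 at 48 h (change -0.046), and without any single 24 h library at either time, whereas the direct difference of -0.24 log2 units (adjusted p = 4.21e-05, SE 0.04) between 48 h and 24 h kept its call in all alternatives. Pkm shares 23.5% of its exon bases with Gm49759 on the same strand.

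Lactate is made by lactate dehydrogenase A and exported together with a proton. Ldha was at 1673 to 1839 CPM in control, 2073 to 2172 at 24 h and 1754 to 1787 at 48 h. It rose at 24 h by 0.28 log2 units (adjusted p = 8.83e-05, SE 0.04) and at 48 h was back within the control range, with a change of 0.015 (adjusted p = 0.777, SE 0.04) over control and -0.27 (adjusted p = 1.27e-05, SE 0.04) against 24 h. With Ldhb near 0, Ldha was almost the sole lactate dehydrogenase measured here. Slc16a1 (ENSMUSG00000032902, chr3:104545984-104565778), which encodes the monocarboxylate transporter MCT1, was at 216, 208 and 217 CPM in control, 259.5, 267 and 257 at 24 h and 315, 336 and 321 at 48 h, again with no overlap between groups. The change was 0.29 log2 units (adjusted p = 0.000451, SE 0.05) at 24 h and 0.60 (adjusted p = 6.11e-09, SE 0.05) at 48 h. Slc16a3 (ENSMUSG00000025161, chr11:120839306-120851694) encodes MCT4, known as the lactate exporter of highly glycolytic cells, and was measured at 5.15, 4.01 and 5.42 CPM in control, 7.54, 6.84 and 8.11 at 24 h and 9.2, 7.37 and 8.75 at 48 h. Both later groups lay above control and overlapped each other. It rose by 0.62 log2 units (adjusted p = 0.0216, SE 0.16) at 24 h and 0.79 (adjusted p = 0.000295, SE 0.15) at 48 h, and the 24 h call disappeared without control replicate 2 or 24 h replicate 1 or 3 (adjusted p 0.00474 to 0.0975 over the alternatives). Slc16a3 shares 40.1% of its exon bases with Csnk1d on the opposite strand, a gene with 33798 counts in all libraries against 984 for Slc16a3. Csnk1d itself was higher by 0.10 log2 units at 24 h and by 0.13 at 48 h. Whether counting used the strand is not given in the sources used here, so the counts of Slc16a3 are uncertain.

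Of the kinases that switch off pyruvate dehydrogenase, 3 of 4 rose at 48 h, and the 3 subunits of the complex among the members fell. Of all genes tested, 22% were called higher and 24.4% lower at 48 h, and groups as small as these describe the named genes only. Pdk1 (ENSMUSG00000006494, chr2:71703568-71734202) was at 93, 85.9 and 88 CPM in control, 116, 121 and 120.2 at 24 h and 174, 170.4 and 193 at 48 h, without overlap between the groups. It was 1.34-fold the control level at 24 h and 2.01-fold at 48 h, with changes of 0.42 log2 units (adjusted p = 0.000129, SE 0.06) and 1.01 (adjusted p = 1.5e-10, SE 0.06). Pdk4 (ENSMUSG00000019577, chr6:5483351-5496309), the form known to respond to fasting and lipid use, was at 4.02, 3.35 and 4.21 CPM in control, 4.34, 4.82 and 3.25 at 24 h and 7.48, 7.31 and 8.54 at 48 h. Its 24 h libraries overlapped control and its 48 h libraries lay above both, and the change was 0.10 log2 units (adjusted p = 0.844, SE 0.18) at 24 h and 1.01 (adjusted p = 8.34e-05, SE 0.17) at 48 h. Pdk2 was at -0.10 ± 0.09 log2 units at 24 h, where it was not called, and rose by 0.40 (adjusted p = 0.000951, SE 0.09) at 48 h, and the difference between its 2 times was 0.50 (adjusted p = 0.0001, SE 0.09). Pdk3 was not called at either time, at 0.17 log2 units and -0.017. Per length, Pdk1 made up 35.8% ± 2.14 (SD) of the 4 kinases in control, 41.5% ± 0.335 at 24 h and 49.2% ± 1.69 at 48 h, while Pdk3 made up 38.3% ± 2.72, 37.3% ± 0.821 and 25.9% ± 1.73. On this scale, which rests on the deposited gene lengths, the library ranges of Pdk1 and Pdk3 overlapped in control and Pdk1 was ahead in all libraries at 24 h and 48 h. In counts not divided by length, Pdk1 was ahead in control too, with 60.6% against 21.4% for Pdk3.

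Of the complex itself, Dlat, the acetyltransferase core, was at 56.7 to 60.6 CPM in control, 59.9 to 64.4 at 24 h and 39.8 to 46.9 at 48 h, where all libraries lay below the others. It fell at 48 h, with a change of -0.45 log2 units (adjusted p = 2.41e-05, SE 0.07). Pdha1, the subunit that the kinases phosphorylate, fell at 48 h, with a change of -0.20 log2 units (adjusted p = 0.00578, SE 0.05), and so did Pdhb, its partner in the same enzyme, with -0.21 (adjusted p = 0.0134, SE 0.07). The call of Pdha1 was lost without control replicate 1 (adjusted p 0.00506 to 0.0505 over the alternatives), and that of Pdhb without control replicate 1 or 48 h replicate 2 or 3 (adjusted p 0.00603 to 0.0952). At 24 h these 3 subunits were between -0.038 log2 units and 0.081 and were not called. The ratio of Pdk1 to Pdha1, per length, was 0.401 ± 0.00414 (SD) in control, 0.512 ± 0.0279 at 24 h and 0.928 ± 0.0433 at 48 h, and its library ranges did not overlap. This ratio restates the changes of the 2 genes given above and is no separate support. Other ratios formed did overlap: Slc16a1 to Slc2a1 between all groups, Hk2 to Hk1 between control and 48 h, and Ldha to Pdha1 between 24 h and 48 h. Mpc1 and Mpc2 encode the carrier that takes pyruvate into the mitochondrion. Neither was called against control, with changes of -0.037 log2 units and 0.37 ± 0.15 for Mpc1 (adjusted p = 0.0578 at 48 h) and -0.11 and -0.10 for Mpc2, and Mpc1 was higher at 48 h than at 24 h by 0.40 (adjusted p = 0.0346, SE 0.15). The 48 h change of Mpc1 over control was called in 2 of the 17 alternatives (adjusted p 0.0115 to 0.201).

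**Figure D4:**
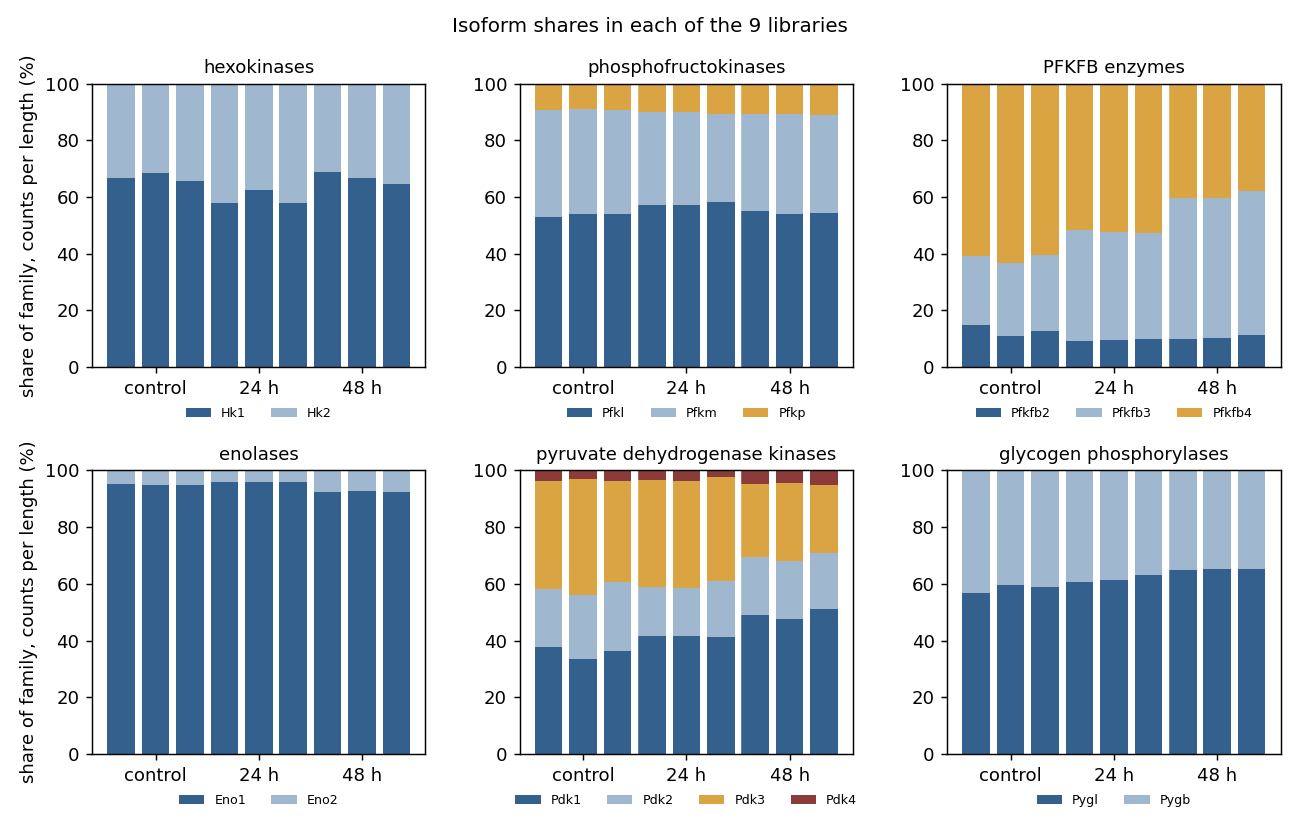
Share of each isoform in the summed level of the members of its family (y axis, percent of counts per length) in the 3 control, 3 24 h and 3 48 h libraries (x axis, 1 bar per library). Isoforms outside the members, such as Eno3, are left out. Pfkfb3 grows from 25.7% to 38.2% and 49.96% while Pfkfb4 shrinks, Pdk1 from 35.8% to 41.5% and 49.2%, and Hk2 is largest at 24 h.

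Of the glycogen genes, Gys1 and Pgm1 rose at both times, Gbe1 at 24 h, and Ugp2 and Pygl at 48 h. Gys1 (ENSMUSG00000003865, chr7:45084268-45106043), glycogen synthase of non-liver cells, was at 98.8, 109.8 and 101 CPM in control, 152, 138 and 165 at 24 h and 153, 158 and 167 at 48 h. Both later groups lay above control and overlapped each other, and the change was 0.56 log2 units (adjusted p = 2.13e-05, SE 0.07) at 24 h and 0.63 (adjusted p = 3.56e-07, SE 0.07) at 48 h. Gys1 overlaps Ruvbl2 on the opposite strand over 5.35% of its exon bases. Pgm1 (ENSMUSG00000025791, chr4:99786611-99844491), the phosphoglucomutase that links glucose 6-phosphate with glucose 1-phosphate, was at 105, 108 and 98.9 CPM in control, 140.2, 141 and 144 at 24 h and 153, 152 and 152 at 48 h. Its later groups lay above control, and it rose by 0.44 log2 units (adjusted p = 1.71e-05, SE 0.05) at 24 h and 0.55 (adjusted p = 8.57e-08, SE 0.05) at 48 h. Pgm1 shares 16.7% of its exon bases with Itgb3bp on the opposite strand. Gbe1, the branching enzyme, rose at 24 h by 0.24 log2 units (adjusted p = 0.0187, SE 0.06), was at 0.016 at 48 h, and lost its 24 h call without 24 h replicate 2 or 3 or in a fit of only the groups compared (adjusted p 0.00236 to 0.0888 over the alternatives). Ugp2, which makes the UDP-glucose used for synthesis, was at -0.11 ± 0.06 log2 units at 24 h (adjusted p = 0.296) and rose by 0.25 (adjusted p = 0.00121, SE 0.05) at 48 h.

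On the side of breakdown, Pygl, the liver-type glycogen phosphorylase, was at 201 to 222 CPM in control, 209 to 231 at 24 h and 287 to 294 at 48 h. It was at 0.022 log2 units at 24 h and rose by 0.44 (adjusted p = 1.64e-06, SE 0.05) at 48 h. The brain-type Pygb was at -0.17 log2 units (adjusted p = 0.0561, SE 0.05) at 24 h, just outside the call, and 0.038 at 48 h, and was higher at 48 h than at 24 h by 0.21 (adjusted p = 0.00206, SE 0.05). Pygl made up 58.5% ± 1.48 (SD) of the 2 phosphorylases per length in control, 61.6% ± 1.17 at 24 h and 65.1% ± 0.101 at 48 h. Pgm2, a related sugar phosphate mutase, was not called against control (0.15 log2 units and -0.11) and was lower at 48 h than at 24 h, at -0.26 (adjusted p = 0.00545, SE 0.07). The member called with the highest adjusted p at 24 h was Pkm (0.0347) and the first one outside was Pygb (0.0561), and at 48 h they were Pkm (0.0406) and Pfkfb2 (0.0578).

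Other genes of the same pathways, outside the 40, were counted as well. Beside them, 3.25% of all genes were called higher and 2.9% lower at 24 h, and 22% higher and 24.4% lower at 48 h. The share of other glycolysis genes higher at 48 h lay close to that of all genes. Of 21 other glycolysis genes tested, 0 were higher and 2 lower at 24 h (1 and 5 at an unadjusted p under 0.05), and 5 were higher and 9 lower at 48 h, with a median log2 fold change of -0.16 at 48 h. Among those higher at 48 h were Emb (0.71 ± 0.04 log2 units) and Bsg (0.36 ± 0.04), which encode the membrane partners that carry MCT1 and its relatives to the cell surface. Among those lower were Eno3 (-1.16 ± 0.08 log2 units), the muscle enolase, Adpgk (-0.73 ± 0.07), an ADP-dependent glucokinase, and Tigar (-0.67 ± 0.10), a phosphatase that lowers fructose 2,6-bisphosphate. Eno3 thus fell where Eno2 rose. Of 18 other glycogen genes, 1 was higher at 24 h, and 6 were higher and 2 lower at 48 h. Ppp1r3b, which brings a phosphatase to glycogen and so activates glycogen synthase, was higher at both times (0.90 ± 0.14 log2 units and 1.23 ± 0.14), and Epm2a, the glycogen phosphatase laforin, was higher at 48 h (2.13 ± 0.28) from 1.25 ± 0.635 CPM (SD) in control.

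The tricarboxylic acid cycle and the branches off glycolysis were counted in the same way. They are to be read beside the 22% of all genes called higher and 24.4% called lower at 48 h. At 24 h these shares were 3.25% and 2.9%. Of 19 genes of the tricarboxylic acid cycle, 0 were called at 24 h (0 higher and 2 lower at an unadjusted p under 0.05), and 1 was higher and 11 were lower at 48 h, with a median log2 fold change of -0.21. The lower ones included Idh3a (-0.73 ± 0.06 log2 units), the catalytic subunit of the mitochondrial isocitrate dehydrogenase, Mdh2 (-0.55 ± 0.05), mitochondrial malate dehydrogenase, and Sdhb (-0.36 ± 0.07), a subunit of succinate dehydrogenase, and the one that rose was the cytosolic Idh1 (0.72 ± 0.06). Of 17 other pyruvate genes, 0 were higher and 2 lower at 24 h (1 and 6 at an unadjusted p under 0.05), and 6 were higher and 8 lower at 48 h. Higher at 48 h were Me3 (0.78 ± 0.18 log2 units), a mitochondrial malic enzyme, Pdpr (0.52 ± 0.13), which regulates the phosphatase of pyruvate dehydrogenase, and Acss2 (0.48 ± 0.09), which makes acetyl-CoA from acetate. Lower at 48 h were Cs (-0.44 ± 0.04 log2 units), the citrate synthase that takes up acetyl-CoA, Gpt2 (-0.44 ± 0.09), a mitochondrial alanine aminotransferase, Me2 (-0.44 ± 0.05), another malic enzyme, and Pdhx (-0.40 ± 0.08), a further subunit of the pyruvate dehydrogenase complex. Those lower at 24 h were both higher than control at 48 h, namely Gpt (-0.73 ± 0.10 log2 units and 0.45 ± 0.09), the cytosolic alanine aminotransferase, and Pdp1 (-0.27 ± 0.08 and 0.36 ± 0.07), the phosphatase that reverses the action of the kinases. The 24 h call of Pdp1 was lost in 7 of 17 alternatives, among them those without control replicate 1, 24 h replicate 1 or 3 or any 48 h library. Of 19 genes of the pentose phosphate pathway and sugar side branches, 3 were higher and 2 lower at 24 h, and 5 were higher and 6 lower at 48 h. The entry enzyme of that pathway, G6pdx (-0.60 ± 0.05 log2 units), Taldo1 (-0.58 ± 0.05) and Akr1b3 (-0.77 ± 0.06) fell at 48 h. Gfpt2 (1.14 ± 0.06), which draws fructose 6-phosphate into hexosamine synthesis, rose.

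Known regulators of these genes were listed as well. The shares of all genes to set beside them were 3.25% higher and 2.9% lower at 24 h, and 22% higher and 24.4% lower at 48 h. The share of regulators lower at 48 h lay close to that of all genes. Of 19 tested, 5 were higher and 0 lower at 24 h, and 7 were higher and 5 lower at 48 h (at an unadjusted p under 0.05, 7 and 3 at 24 h). Hif1a, the oxygen-regulated subunit of hypoxia-inducible factor, was at 209 ± 22.9 CPM (SD) in control, 280.0 ± 1.41 at 24 h and 327 ± 12.9 at 48 h and rose at both times (0.42 ± 0.06 log2 units and 0.64 ± 0.06). Egln1, the prolyl hydroxylase that marks HIF-1α for destruction and is itself a known hypoxia-responsive gene, rose likewise (0.38 ± 0.05 log2 units and 0.76 ± 0.05). Myc, another known activator of glycolytic genes, was at 0.025 log2 units at 24 h and fell at 48 h (-0.64 ± 0.05), and so did Txnip (-0.67 ± 0.06), which restrains glucose uptake. Other regulators took other courses. Egln3 and Arrdc4 were higher at 24 h (0.85 ± 0.17 log2 units and 0.39 ± 0.07). Against control at 48 h they were not called (0.36 ± 0.17 and -0.061 ± 0.07), and both were lower at 48 h than at 24 h (-0.49 ± 0.16 and -0.45 ± 0.06). Of 19 hypoxia-responsive genes outside glycolysis, 13 were higher at 24 h and 18 at 48 h, with 0 lower at both times (0 also at an unadjusted p under 0.05). Counts at the level of RNA do not measure the HIF-1α protein.

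Of the members that rose at both times and reached 5 CPM, the 4 with the largest change at 48 h are printed here by their upstream sequence. The rule picks genes that rose, so their common rise is no result. Each is the 250 bases before the first listed start of the gene in RefSeq for GRCm38.p6, an older build than the GRCm39 coordinates given above. Capitals mark ACGTG or GCGTG on either strand (CACGT or CACGC when read on the other strand), the core letters known to be bound by hypoxia-inducible factor. Pfkfb3 and Pdk1 each have a second listed start that is not printed, whose 250 bases hold 3 such matches for Pfkfb3 and 0 for Pdk1.
Pfkfb3, chr2:11553930-11554179, minus strand: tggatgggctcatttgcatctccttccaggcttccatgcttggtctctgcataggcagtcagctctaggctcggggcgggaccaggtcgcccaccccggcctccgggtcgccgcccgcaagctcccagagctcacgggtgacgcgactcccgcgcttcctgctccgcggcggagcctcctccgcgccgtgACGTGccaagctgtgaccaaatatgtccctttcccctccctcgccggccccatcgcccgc
Pdk1, chr2:71872974-71873223, plus strand: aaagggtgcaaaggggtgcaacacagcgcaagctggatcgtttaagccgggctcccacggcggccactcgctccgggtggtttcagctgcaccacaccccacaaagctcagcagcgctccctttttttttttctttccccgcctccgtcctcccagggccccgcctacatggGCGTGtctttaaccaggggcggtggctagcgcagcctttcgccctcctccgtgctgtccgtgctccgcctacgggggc
Slc2a1, chr4:119108495-119108744, plus strand: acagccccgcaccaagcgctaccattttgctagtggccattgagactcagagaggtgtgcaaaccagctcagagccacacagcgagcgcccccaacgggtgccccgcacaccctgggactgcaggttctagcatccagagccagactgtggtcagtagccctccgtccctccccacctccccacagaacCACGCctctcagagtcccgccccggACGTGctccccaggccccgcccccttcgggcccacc
Slc16a3, chr11:120948817-120949066, plus strand: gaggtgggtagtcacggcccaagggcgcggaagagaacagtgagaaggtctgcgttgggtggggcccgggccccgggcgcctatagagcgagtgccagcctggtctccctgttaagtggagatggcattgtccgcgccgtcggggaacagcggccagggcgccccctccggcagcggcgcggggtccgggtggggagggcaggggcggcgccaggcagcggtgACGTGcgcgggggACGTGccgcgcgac
RefSeq listed 57 promoters for 39 of the 40 members, all but Slc2a3. At least 1 such match was present in 75.4% of these 57 windows, in 55.8% of the windows of the 9893 tested genes that matched and in 38.6% of all windows listed. The share was 78.3% in the 23 windows of the members called higher at both times and 75.0% in the 28 windows of the members not called at 24 h. The mean content of G and C was 60.4% in the windows of the members, 59.9% in those of genes tested and 53.2% in all. A match of 5 letters is a description of the sequence and not a measured binding site.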

How the data were processed

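The authors deposited 1 table of raw read counts per gene with gene lengths, neither normalized. As the labels and the study's methods describe, the authors' directional paired-end reads were trimmed, aligned to mm39 (GRCm39) with HISAT2 and counted with featureCounts, listed as 2.06 in the submitters' processing notes. Other sources give another featureCounts version, and the methods also name RSEM. Use of strand and of reads with several matches is not given in the sources used here.

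Counts were analysed with edgeR 4.0.16 in R 4.3.3. The filterByExpr function (minimum count 10) kept 13812 genes, TMM scaled the libraries, and 1 quasi-likelihood fit of 9 libraries (6 residual degrees of freedom) gave 3 comparisons, called at a Benjamini-Hochberg adjusted p under 0.05. SEs were derived from the F statistic. CPM use the TMM-scaled library size, and levels of different genes and shares within families were compared per kb of deposited gene length, or with no length as an alternative. Families hold only isoforms that are among the members. The members and lists were chosen with earlier results of these data known. Values in each library are given for members called against control with a log2 fold change of at least 0.5 in size, or in opposite directions. Genes named from other lists are among the 3 largest called changes per list, direction and comparison, at 5 CPM or more. Not all of these genes are named. Replicates differed by more than counting noise. Alternatives were DESeq2 1.42.0, other scalings, no filter, only the groups compared, a replicate block, stricter thresholds and each library left out. Scaling without the 50 most abundant genes was chosen after seeing the data. The procedure was tested on simulated data. The precision of a count depends on depth, and a count of 0 allows up to 3 counts, which covers counting error only.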

Additional observations from a re-analysis of the deposited data

Results flagged for a closer look

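For 29 of the 39 tested members the change over control differed between 48 h and 24 h in a direct edgeR test of 48 h against 24 h, in which the control libraries cancel. Values are log2 differences, 48 h minus 24 h. Of these members, 19 were higher at 48 h. Among transporters the difference was 0.23 log2 units for Slc2a1 and 0.31 for Slc16a1. In the glycolytic chain it was 0.21 log2 units for Hk1, 0.26 for Gpi1, 0.17 for Pfkm, 0.16 for Pfkp, 1.69 for Aldoc, 0.14 for Tpi1, 0.20 for Gapdh and 0.83 for Eno2. The regulatory enzymes Pfkfb2 and Pfkfb3 differed by 0.43 log2 units and 0.69. The kinases Pdk1, Pdk2 and Pdk4 differed by 0.59 log2 units, 0.50 and 0.91, and the pyruvate carrier gene Mpc1 by 0.40. Of the glycogen genes, Pygl differed by 0.42 log2 units, Pygb by 0.21 and Ugp2 by 0.36. The other 10 members were lower at 48 h. These were Slc2a3 (-0.72 log2 units), Hk2 (-0.25), Pgam1 (-0.11), Pkm (-0.24), Ldha (-0.27), Pdha1 (-0.27), Pdhb (-0.17), Dlat (-0.53), Pgm2 (-0.26) and Gbe1 (-0.23). Of all genes tested, 23.7% were higher and 25.4% lower at 48 h than at 24 h, so the share of members lower lay close to that of all genes. Groups of 3 libraries were not searched for single outlying libraries.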

How the results depend on the processing

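The counts of members kept within 1.5 times of the reported ones under other scalings, DESeq2, no filter, only the groups compared and the replicate block, except that scaling by library size alone called 1 member lower at 24 h instead of 0 (Pygb). Requiring a change of 1 log2 unit or more left 0 members higher at 24 h, 4 higher and 0 lower at 48 h, and 1 higher and 0 lower between 48 h and 24 h. An adjusted p under 0.01 left 2 lower at 48 h. With single libraries left out, the members lower at 48 h numbered 2 to 5, falling to 2 without control replicate 1 or 48 h replicate 2 and to 3 without control replicate 2 or 48 h replicate 3. The members higher than control numbered 15 to 20 at 24 h and 24 to 26 at 48 h. The cause of these changes was not tested.

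Same-numbered libraries did not deviate together (correlations of -0.049 to 0.077), so the numbers were not taken as pairs. With the replicate block, 20 members were higher and 0 lower at 24 h, 26 higher and 5 lower at 48 h, and 19 higher and 11 lower between the times, the added calls being Pfkfb2 and Pdk3.

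Between 48 h and 24 h, calls were gained in some of the 17 alternatives, namely in 4 each for Pgk1, Eno1 and Pgm1, 3 for Aldoa and 7 for Pdk3. Calls between the times were lost with all libraries kept for Pgam1 (DESeq2 size factors, library size alone, DESeq2's Wald test), Pdhb (library size alone, Wald test) and Mpc1 (no filter, Wald test). Leaving out 1 library ended these calls: Hk2 (24 h replicates 1 and 3, 48 h replicates 1 and 2), Pfkp (24 h replicates 1 and 2, 48 h replicate 3), Gapdh (24 h replicates 1 and 2, 48 h replicates 2 and 3, with a log2 difference down to 0.13), Pgam1 (all but control replicates 2 and 3 and 24 h replicate 1), Pdhb (24 h replicates 2 and 3, 48 h replicates 2 and 3, down to -0.11 without 24 h replicate 2) and Mpc1 (24 h replicates 1 and 3, 48 h replicates 2 and 3).

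Without division by gene length, 62 shares of an isoform in its family (group means) moved by more than 1 SD and 10 did not. Leaving out 1 library moved 0, but this outcome was fixed in advance. With 3 libraries, dropping 1 cannot shift a group mean by 1 SD of those libraries, so it says nothing about stability. The sign turned only in uncalled values near 0. With library size alone Pfkl was at 0.022 between the times and Pdk3 at 0.0036 at 48 h, and with no filter Mpc2 was at -0.013 between the times. With single libraries left out, log2 fold changes ranged as follows. At 24 h they ran from -0.0093 to 0.28 for Slc2a3, from -0.050 to 0.0074 for Pfkm, from -0.018 to 0.057 for Pfkfb4, from -0.079 to 0.040 for Eno2, from -0.024 to 0.24 for Pdk4, from -0.095 to 0.0036 for Pdhb, from -0.085 to 0.016 for Mpc1, from -0.21 to 0.0011 for Mpc2 and from -0.023 to 0.056 for Pygl. At 48 h they ran from -0.0039 to 0.061 for Ldha, from -0.069 to 0.068 for Pdk3, from -0.20 to 0.015 for Mpc2 and from -0.017 to 0.096 for Gbe1. Between the times they ran from -0.029 to 0.012 for Pfkl and from -0.013 to 0.037 for Mpc2. Depth limits Aldoc, Ldhb, Slc16a3, Pdk4 and Slc2a3, which had few reads.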
